A study of Mus musculus with 21 samples.

Results

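The first incubator experiment of this series compared B16-F10 cells kept at 1% oxygen with cells kept at 21% oxygen. It comprises 5 of the 21 arrays: 3 hypoxia arrays (replicates 1, 2 and 3, 24 h in an incubator whose oxygen flow was regulated) and 2 control arrays (replicates 1 and 2), chosen by the experiment number and condition in the array titles. B16-F10 is an established mouse melanoma line of C57BL/6J origin that metastasises to the lung, and all arrays of the series carry RNA from it. The arrays, Affymetrix U74Av2, carry short oligonucleotide probe sets against mouse transcripts and were hybridised with labelled total RNA. The oxygen level is nominal, and the time for which control cells were cultured is not given in the labels. For comparison, a second incubator experiment and a set in a sealed chamber, each again with 3 arrays at 1% oxygen for 24 h and 2 controls at 21% oxygen, entered the same model; controls whose titles carry no experiment number were taken as those of the chamber. The other 6 arrays, cobalt chloride cultures and their controls, only helped to estimate the spread. The labels call the arrays biological replicates but do not say that they came from separate cultures, so p-values measure only the spread between these arrays. Values are log2 RMA values, so a difference of 1 is a doubling of the measured signal. Changes are the mean of the 3 hypoxia arrays minus the mean of the 2 control arrays, given with the standard error of the linear model (limma) and its p-value adjusted over all 8251 genes by the Benjamini-Hochberg method. The threshold for a call was an adjusted p under 0.05.

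Cells answer a lack of oxygen largely through the hypoxia-inducible factors (HIF). Prolyl hydroxylases use oxygen to mark the HIF alpha subunits Hif1a and Epas1 for degradation through the von Hippel-Lindau protein Vhl. Without oxygen the alpha subunit persists, pairs with Arnt and binds the letters ACGTG in the control regions of genes for glucose uptake, glycolysis, vessel growth and mitochondrial removal. Melanoma cells arise from pigment cells, whose lineage factors Mitf and Sox10 drive the pigment enzymes.

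The promoters of 4 genes that rose in experiment 1 are shown because they hold these letters: Selenbp1, Slc2a1 and Hk2 had the largest changes among genes of the HIF, glycolysis and glycogen lists with the letters in their window, and Bnip3, picked after its values were seen, rose less than in the other hypoxia sets. Each sequence is the 250 bases before the annotated start of the gene, 5′ to 3′ on the strand of the gene, from RefSeq on GRCm38.p6. Capitals mark ACGTG on the shown strand or CACGT, which is the same motif on the opposite strand.
Selenbp1 (chr3:94932833-94933082, plus strand): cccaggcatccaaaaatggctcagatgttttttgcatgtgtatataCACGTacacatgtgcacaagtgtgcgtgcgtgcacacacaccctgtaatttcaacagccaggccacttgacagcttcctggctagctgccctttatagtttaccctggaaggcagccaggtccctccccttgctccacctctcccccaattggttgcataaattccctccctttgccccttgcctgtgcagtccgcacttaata
Slc2a1 (chr4:119108495-119108744, plus strand): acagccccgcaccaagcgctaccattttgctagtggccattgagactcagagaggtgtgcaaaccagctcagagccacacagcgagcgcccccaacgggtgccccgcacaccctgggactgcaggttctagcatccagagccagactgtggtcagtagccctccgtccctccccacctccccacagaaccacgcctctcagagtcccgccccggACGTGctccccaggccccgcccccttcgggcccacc
Hk2 (chr6:82774455-82774704, minus strand): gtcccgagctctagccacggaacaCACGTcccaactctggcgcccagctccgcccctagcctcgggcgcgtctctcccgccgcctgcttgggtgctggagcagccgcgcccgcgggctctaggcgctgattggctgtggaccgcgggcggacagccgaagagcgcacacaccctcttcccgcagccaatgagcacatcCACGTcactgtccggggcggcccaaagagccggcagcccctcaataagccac
Bnip3 (chr7:138909507-138909756, minus strand): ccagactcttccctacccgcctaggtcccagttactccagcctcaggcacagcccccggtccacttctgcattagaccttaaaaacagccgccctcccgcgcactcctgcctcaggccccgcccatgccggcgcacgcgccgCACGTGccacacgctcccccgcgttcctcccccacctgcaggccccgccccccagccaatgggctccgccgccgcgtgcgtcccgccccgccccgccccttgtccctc
In Bnip3 the capitals form CACGTG, which reads the same on either strand and so counts as a match on each. Over windows of 300 bases (the bases shown plus the 50 that follow the start), ACGTG on either strand was found in 24.5% of the 6572 tested genes with a window. The share was 33.5% of 516 genes called higher, 37.3% of the 102 among them that rose by at least 1 log2 unit, and 25.4% of 736 genes called lower. Of 38 ribosome biogenesis genes with a window, few of which rose, 42.1% held it. The related letters GCGTG were found in 47.9% of all windows, 57.6% of those of genes called higher and 56.4% of those of genes called lower. Of 54 members of the HIF target, glycolysis and glycogen lists with a window, 29 (53.7%) held ACGTG and 34 (63.0%) held GCGTG. Vegfa, Adm and Ccng2 were among the members that rose without ACGTG in their window, and Ldha held 5 matches to ACGTG without being called. A match describes the letters only, and no binding was measured.

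Expression levels of the arrays were closely alike within groups. Pearson's r across genes was 0.996 between the 2 controls and 0.993 to 0.995 between hypoxia arrays, against 0.977 to 0.981 between a control and a hypoxia array (genes are not independent replicates). Pigment-cell transcripts were abundant: Pmel read 12.47 and 12.61 in the control and 12.33, 12.27 and 12.34 in the hypoxia arrays, and Dct and Tyrp1 lay between 10.65 and 11.69 in all 5. Of the markers of other cell types, 0 of 13 fibroblast and 0 of 12 epithelial genes were called, though a second probe set of the fibroblast marker Col1a2 was called lower (-0.47, adjusted p = 0.00378). Likewise a second probe set of the epithelial marker Dsp was called higher (0.78, adjusted p = 0.0032), from a low control mean of 2.16. The endothelial marker Eng fell by 0.56 ± 0.11 (adjusted p = 0.00107) and the leukocyte marker Cd68 rose by 0.95 ± 0.21 (adjusted p = 0.00281). A second Cd68 probe set differed by 0.02 and was not called, the call of Eng was lost without control replicate 2 (adjusted p = 0.0551), and the other 8 endothelial and 12 leukocyte markers were not called. On the linear scale the 9 endothelial markers summed to 1566 and 1830 in the controls and 1199 to 1238 in the hypoxia arrays, and the 13 leukocyte markers to 505 to 515 and 508 to 560. The difference between the 3′ and 5′ control probe sets, a measure of RNA and labelling quality, was 1.68 and 1.56 for Tfrc in the controls and 2.22 to 2.43 in hypoxia, 0.46 and 0.43 against 0.75 to 0.86 for Pcx, and 0.33 and 0.35 against 0.15 to 0.25 for Actb. For Gapdh it was 0.52 and 0.12 against 0.25 to 0.34, so the groups overlapped. The first 3 of these measures moved with the group, and their part in the results was not tested. The arrays measure RNA from whole cultures, so a smaller share of cells with a transcript and less transcript per cell cannot be told apart.

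Hypoxia in experiment 1 altered a large part of the measured transcriptome, with larger increases than decreases. Of 8251 genes, 1510 were called (18.3%), 625 higher (7.57%) and 885 lower (10.7%). The counts in the gene lists below are to be read against these shares. After centring each array on its median, 725 were called higher and 728 lower. Among the 1510 genes called without this centring, 125 rose (1.51% of all genes) and 55 fell (0.667%) by 1 log2 unit or more. The largest increase was 4.56 and the largest decrease 2.15, while the median change over all genes was -0.03. Genes called higher had a median change of 0.62 and those called lower a median of -0.54. The 2 control arrays set the precision: without control replicate 1, 933 genes were called in all, and without control replicate 2, 884, against 1510 with all arrays.

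**Figure D1:**
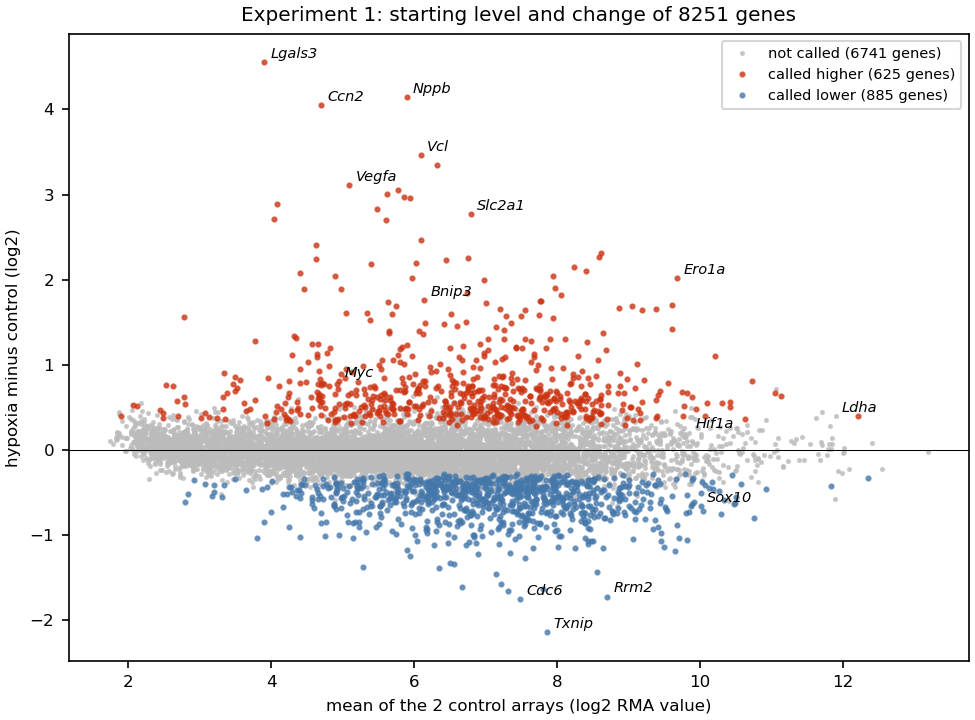
Change in experiment 1 (hypoxia minus control, log2) against the mean of the 2 control arrays (log2 RMA value) for 8251 genes. Grey points were not called, red were called higher (625) and blue lower (885); increases reach 4.56 (Lgals3) and decreases 2.15 (Txnip).

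The strongest increase was that of Lgals3, galectin-3, a lectin that binds sugars on the cell surface and in the matrix. Lgals3 read 3.71 and 4.09 in the control arrays and 8.43, 8.64 and 8.29 in the hypoxia arrays, and it rose by 4.56 ± 0.20 (adjusted p = 5.96e-13). Its controls lay below the array medians of 5.52 and 5.51 and no detection call was used, so no fold is given. Nppb encodes the precursor of a natriuretic peptide that relaxes vessels. It read 5.72 and 6.07 in the controls and 9.77, 10.24 and 10.10 in hypoxia and rose by 4.14 ± 0.15 (adjusted p = 3.79e-14). Ccn2 read 4.62 and 4.77 in the control arrays and 8.38, 9.13 and 8.73 in the hypoxia arrays; Ccn2, the matricellular connective tissue growth factor, rose by 4.05 ± 0.17 (adjusted p = 3.21e-13). For these 3 genes every hypoxia array lay more than 3 log2 units above every control array. Groups that did not overlap were common here, at 45.4% of all genes, so this alone marks no gene.

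**Figure D2:**
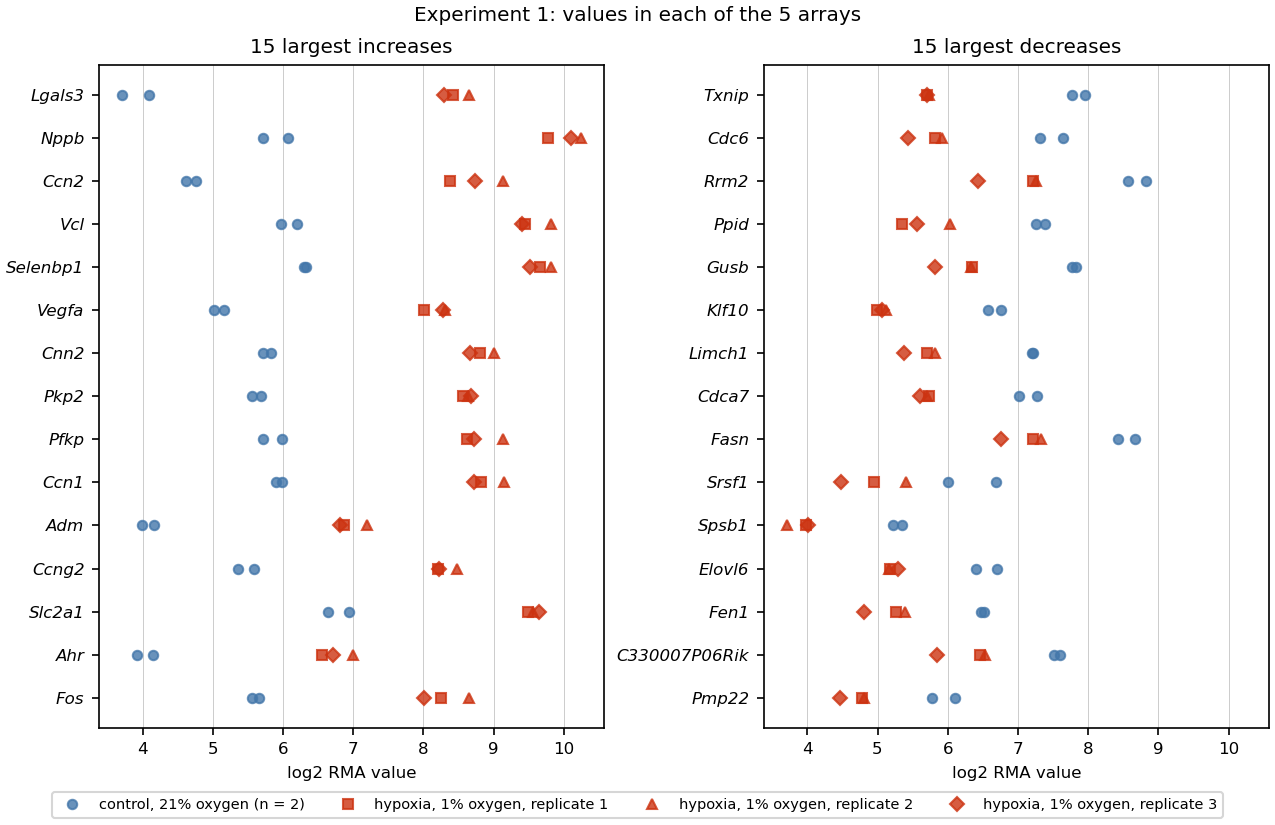
Log2 RMA values in each of the 5 arrays of experiment 1 for the 15 largest increases (left) and decreases (right) among called genes whose groups do not overlap. Blue circles are the 2 controls and red symbols hypoxia replicates 1 (square), 2 (triangle) and 3 (diamond); all hypoxia values of Lgals3 lie between 8.29 and 8.64 against 3.71 and 4.09 in the controls.

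Transcripts of the oxygen-sensing system itself changed in both directions, with 41.7% called higher and 16.7% lower (7.57% and 10.7% over all genes). Of 12 measured subunits and sensors, 5 were called higher and 2 lower, which became 2 and 1 without control replicate 2. Hif1a, the main alpha subunit, whose control is largely through protein stability, read 9.78 and 9.91 in the controls and 9.95, 10.13 and 10.06 in hypoxia, a difference of 0.20 ± 0.14 (adjusted p = 0.409). Epas1, the related alpha subunit, differed by -0.27 ± 0.13 (adjusted p = 0.157), and neither gene passed the test. Egln1, the prolyl hydroxylase that is itself a HIF target, read 8.05 and 7.82 and 9.97, 10.02 and 9.93 and rose by 2.04 ± 0.14 (adjusted p = 5.27e-10). Its paralogue Egln2 went the other way and fell by 0.66 ± 0.11 (adjusted p = 0.000132). Arnt, the beta subunit, rose by 0.69 ± 0.14 (adjusted p = 0.00132), although a second Arnt probe set differed by -0.07 without a call. Cited2, which competes with HIF for its coactivators, rose by 0.66 ± 0.16 (adjusted p = 0.00576), and such a coactivator, Crebbp, fell by 0.56 ± 0.14 (adjusted p = 0.0078). Vhl rose by 0.44 ± 0.15 (adjusted p = 0.0405). The calls of Cited2 and Crebbp were lost without control replicate 2 (adjusted p = 0.098 and 0.343), and that of Vhl without any of 4 of the 5 arrays.

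Most members of the list of HIF targets outside glucose metabolism rose. The list was drawn up with earlier results of these data known, and Selenbp1 entered it from earlier work on this line. Its counts therefore only describe these members. Of 28 measured members, 22 were called higher and 0 lower, with a median change of 1.56, and 22 were called higher without each of the 5 arrays in turn. Vegfa read 5.16 and 5.02 in the control arrays and 8.01, 8.30 and 8.28 in the hypoxia arrays, and this main growth factor for blood vessels rose by 3.11 ± 0.16 (adjusted p = 7.49e-12). Selenbp1, a selenium-binding methanethiol oxidase, rose by 3.35 ± 0.16 (adjusted p = 2.74e-12), with controls at 6.32 and 6.30 and hypoxia arrays at 9.66, 9.82 and 9.52. The vasodilator peptide adrenomedullin, Adm, rose by 2.89 ± 0.16 (adjusted p = 2.37e-11), and the transcriptional repressor Bhlhe40 rose by 2.26 ± 0.20 (adjusted p = 3.7e-08). The increases of the other members that passed ran down to 0.75 for the lipid droplet protein Plin2. They included the Myc antagonist Mxi1 (2.02), the oxidoreductase Ero1a (2.02), the mitochondrial proteins Ak4 (1.74) and Higd1a (1.59), the histone demethylase Kdm3a (1.55) and the haem oxygenase Hmox1 (1.10). The 6 members that did not pass were Car12 (-0.02), Cxcr4 (0.10), Mif (0.01), Pam (0.03), Stc2 (0.13) and Tfrc (0.22).

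Glucose uptake and glycolysis rose at selected steps. Of 17 measured members, 10 were called higher and 0 lower, and the median change was 0.62. Slc2a1 read 6.94 and 6.64 in the control arrays and 9.49, 9.56 and 9.64 in the hypoxia arrays; this main glucose transporter rose by 2.77 ± 0.12 (adjusted p = 5.68e-13). The phosphofructokinase isoforms differed in size: the platelet form Pfkp rose by 2.97 ± 0.20 (adjusted p = 5.27e-10), the liver form Pfkl by 1.64, and the muscle form Pfkm changed by 0.26 without a call. Hexokinase 2, Hk2, which traps glucose in the cell, rose by 2.15 ± 0.17 (adjusted p = 5.13e-09) from 8.37 and 8.09 to 10.30, 10.54 and 10.29, but a second Hk2 probe set differed by 0.03. Hk1 changed by 0.07 without a call. Eno2 rose by 1.89, Aldoc by 1.22, Pgk1 by 0.80, Tpi1 by 0.67, Pgam1 by 0.62 and Pkm by 0.40, and Pkm was not called without any of 4 arrays, among them both controls. Ldha, which makes lactate, differed by 0.39 ± 0.14 (adjusted p = 0.0553) and was not called, as were Aldoa (0.38), the regulator Pfkfb3 (-0.12), the lactate carrier Slc16a1 (0.06) and the glucose transporter Slc2a3 (-0.05).

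Several enzymes that build glycogen, the storage form of glucose, rose, with fewer decreases among genes of its breakdown. In the glycogen list 5 of 13 measured members were called higher and 2 lower. The 6 members not called were Gyg (0.25), Pgm2 (0.24), Pygm (0.09), Ppp1r3c (-0.02), Gaa (-0.11) and Phkb (-0.22). Gys1 read 8.52 and 8.70 in the control arrays and 10.81, 10.84 and 11.12 in the hypoxia arrays, and glycogen synthase thereby rose by 2.31 ± 0.14 (adjusted p = 1.03e-10). The branching enzyme Gbe1 rose by 2.24 ± 0.16 (adjusted p = 1.99e-09), and Pgm1 and Ugp2, which supply the activated glucose, rose by 1.66 and 1.41. The glycogen-binding protein Stbd1 rose by 0.85 ± 0.14 (adjusted p = 0.000123). Among genes for breakdown, the phosphorylase kinase subunit Phka1 fell by 0.47 ± 0.11 (adjusted p = 0.00281) and the brain phosphorylase Pygb, named after its value was seen, fell by 0.40. Without control replicate 1 neither decrease was called, while all 5 increases were counted without any single array. At the entry of pyruvate into the mitochondria, the pyruvate dehydrogenase kinases Pdk1 and Pdk3, which block that step, rose by 1.24 and 1.19. In the TCA cycle list 3 of 27 genes were called higher and 4 lower, with fewer lower without either control replicate. These shares of 11.1% and 14.8% were near those of all genes (7.57% and 10.7%). Idh1 fell by 0.88 ± 0.14 (adjusted p = 0.000132). Of 57 genes of oxidative phosphorylation 2 were called higher and 2 lower (0 higher without control replicate 1, control replicate 2 or hypoxia replicate 2), shares below those of all genes, and Uqcrc1 fell by 0.62 ± 0.13 (adjusted p = 0.00114).

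Secreted factors that act on vessels, and their receptors, changed in both directions. The share called was 17.4% in each, against 7.57% higher and 10.7% lower over all genes. Among 23 angiogenic and vasoactive genes, 4 were called higher and 4 lower, with 2 lower without control replicate 2. Beside Nppb, Vegfa and Adm, the placental growth factor Pgf rose by 0.76 ± 0.13 (adjusted p = 0.000256), from 4.81 and 4.58 to 5.22, 5.42 and 5.73. The lymphatic growth factor Vegfc fell by 0.86 ± 0.15 (adjusted p = 0.000201), with 5.06 and 5.23 in the controls and 4.37, 4.42 and 4.06 in hypoxia. Nrp1, a coreceptor for Vegfa, fell by 0.92 ± 0.13 (adjusted p = 2.43e-05). In the list of collagen modification and oxidative folding, 3 of 14 were called higher and 0 lower: the prolyl hydroxylases P4ha2 and P4ha1, which modify collagen, rose by 1.75 and 1.20, and Ero1a, which supplies disulphide bonds, by 2.02. The other 11 members, among them the collagen chaperone Serpinh1 (-0.40) and Pdia6 (-0.23), did not pass.

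Genes linked to the actin cytoskeleton were frequent among the increases. Of 30 measured targets of the serum response factor (SRF) and of YAP, 2 regulators that respond to actin and cell tension, 10 were called higher and 2 lower (1 lower without control replicate 2). Vcl read 6.20 and 5.98 in the control arrays and 9.45, 9.81 and 9.40 in the hypoxia arrays; vinculin, which links actin to focal adhesions, rose by 3.46 ± 0.17 (adjusted p = 2.3e-12), and a second Vcl probe set rose by 2.03. Calponin-2, Cnn2, rose by 3.05 ± 0.13 (adjusted p = 3.21e-13), the matricellular protein Ccn1 rose by 2.95 ± 0.20 (adjusted p = 3.76e-10), and the tropomyosin Tpm4 rose by 1.66 ± 0.11 (adjusted p = 2.55e-10). Of 29 genes of actin dynamics, 13 were called higher and 2 lower, and without control replicate 2 the 13 fell to 8. The actin bundler Lcp1 read 6.52 and 6.36 and 8.48, 8.89 and 8.64 and rose by 2.23 ± 0.14 (adjusted p = 1.03e-10), and destrin, Dstn, which severs actin filaments, rose by 2.10 ± 0.12 (adjusted p = 3.15e-11). The monomer-binding thymosin Tmsb4x rose by 1.40 and the crosslinkers Actn4 and Actn1 by 0.96 and 0.77. Capg rose by 1.03 in its representative probe set, while its other 2 probe sets (0.20 and 0.02) were not called.

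Adhesion and matrix genes rose in part. In the list of integrins, matrix and proteolysis, 13 of 50 were called higher and 1 lower, and 8 were called higher without control replicate 1. After Lgals3 the largest increases were those of fibronectin, Fn1 (1.45 ± 0.13), the integrin Itga4 (1.40 ± 0.17), the melanoma adhesion molecule Mcam (1.30 ± 0.15), Sparc (1.30 ± 0.17) and the urokinase receptor Plaur (1.20 ± 0.15). Other Itga4 probe sets differed by 1.18, which was called, and by 0.10, which was not. Fn1 read 6.63 and 6.57 in the controls and 8.03, 7.99 and 8.13 in hypoxia, and Mcam 7.51 and 7.59 and 8.60, 9.16 and 8.79. The median over the whole list was 0.04, near that of all genes. The desmosomal plaque protein Pkp2 rose by 3.00 ± 0.13 (adjusted p = 3.21e-13), and its other probe sets rose by 2.63 and 0.50. The tight junction protein Tjp1 rose by 0.66 and the catenin Ctnnd1 by 0.51. A second Tjp1 probe set differed by 0.39 without a call.

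**Figure D3:**
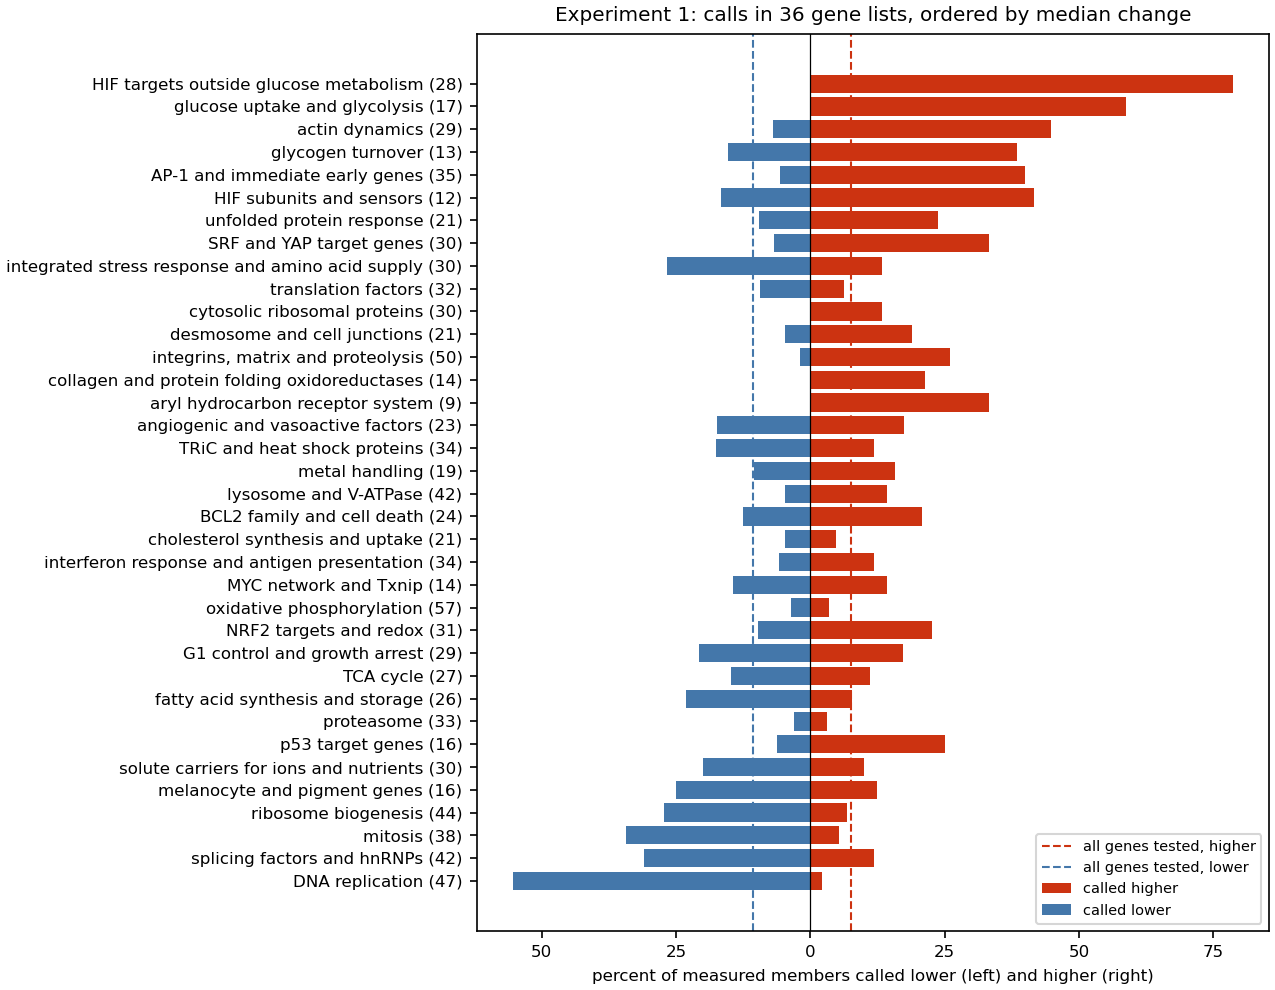
Percent of measured members called higher (red, right) and lower (blue, left) in experiment 1 for 36 gene lists, with the number measured in brackets and lists ordered by median change. Dashed lines mark all genes tested (7.57% higher, 10.7% lower); HIF targets have 22 of 28 members called higher and DNA replication genes 26 of 47 called lower.

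Part of the immediate early and growth-arrest genes rose as well. Of 35 genes of the AP-1 and immediate early list, 14 were called higher and 2 lower, and the 14 fell to 8 without control replicate 1. Fos, an AP-1 subunit, read 5.66 and 5.56 and 8.26, 8.65 and 8.01 and rose by 2.70 ± 0.29 (adjusted p = 6.28e-07), with a second probe set at 0.06. The stress gene Ier3 rose by 2.26 ± 0.20 (adjusted p = 3.6e-08). The stress factor Atf3 rose by 1.58 ± 0.21 (adjusted p = 1.28e-05) in its representative probe set, which matches a sequence family and where the controls read 7.16 and 8.32 and lay further apart than the hypoxia arrays at 9.31, 9.45 and 9.19; another probe set rose by 1.74 and the remaining probe set differed by -0.24. Klf10, an early gene induced by TGF-beta, fell by 1.61 ± 0.15 (adjusted p = 7.35e-08). The cell cycle inhibitors Cdkn1a and Ccng2 rose by 1.64 and 2.83, and the p53 target Plk2 by 2.00. In the G1 control list 5 of 29 were called higher (17.2%) and 6 lower (20.7%), against 7.57% and 10.7% over all genes. Fewer were called higher without control replicate 1. Cyclin D1, Ccnd1, fell by 0.89 ± 0.14 (adjusted p = 0.00012) from 7.41 and 7.65 to 6.80, 6.65 and 6.46, with a second probe set at -0.33 without a call. Myc rose by 0.81 ± 0.15 (adjusted p = 0.000451), and the aryl hydrocarbon receptor Ahr rose by 2.71 ± 0.18 (adjusted p = 4.4e-10) together with its target Tiparp (by 1.75), while the other targets Ahrr (-0.29) and Cyp1b1 (-0.04) were not called.

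DNA replication had the highest share of members called lower among the lists. Of 47 measured genes 26 were called lower and 1, the origin recognition subunit Orc4, higher (not called without control replicate 2 or hypoxia replicate 1). The median was -0.46, against -0.67 in experiment 2 and -0.83 in the chamber, where 34 and 39 members were called lower. Cdc6 read 7.65 and 7.31 in the control arrays and 5.81, 5.92 and 5.44 in the hypoxia arrays; Cdc6, which loads the replicative helicase, fell by 1.75 ± 0.13 (adjusted p = 3.23e-09). Rrm2, the regulated subunit of ribonucleotide reductase, read 8.82 and 8.57 and 7.21, 7.26 and 6.43 and fell by 1.73 ± 0.20 (adjusted p = 1.55e-06). The flap endonuclease Fen1 fell by 1.34, the Myc-responsive Cdca7 by 1.46, the thymidine kinase Tk1 by 0.97 and the methylation reader Uhrf1 by 0.94, although a second Tk1 probe set differed by -0.01. Within the replicative helicase, Mcm2 (-0.69), Mcm3 (-0.62) and Mcm7 (-0.64) were called lower, and Mcm4 (-0.42), Mcm5 (-0.31) and Mcm6 (-0.24) were not. Of the small clamp loader subunits, Rfc3 fell by 0.71, Rfc4 by 0.76 and Rfc5 by 0.68, whereas Rfc2 (-0.24) did not pass. Pcna, the sliding clamp, differed by -0.44 ± 0.20 (adjusted p = 0.161).

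Mitotic genes fell in smaller number. Of 38 measured, 13 were called lower and 2 higher, and the 13 became 8, 6, 8 and 8 without control replicate 1, control replicate 2, hypoxia replicate 1 and hypoxia replicate 3. The centromeric histone Cenpa fell by 1.00 ± 0.16 (adjusted p = 0.000113), the motor Kif23 fell by 0.87 ± 0.15 (adjusted p = 0.000166) and the tubulin-binding Stmn1 fell by 0.75 ± 0.14 (adjusted p = 0.00043), with a second Stmn1 probe set at -0.32. The checkpoint kinase Bub1 and the scaffold Anln went the other way, by 0.66 and 0.66, and neither was called without control replicate 2. Other Bub1 probe sets differed by 0.54 and -0.04 without a call. The proliferation marker Mki67 read 7.49 and 7.54 in the controls and 7.07, 7.61 and 7.10 in hypoxia, so its groups overlapped, and its difference was -0.26 ± 0.18 (adjusted p = 0.402).

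Genes of fatty acid synthesis, storage and breakdown were among the decreases. In the list of fatty acid synthesis and storage 6 of 26 were called lower and 2 higher. Fasn read 8.67 and 8.43 in the control arrays and 7.22, 7.33 and 6.76 in the hypoxia arrays; the fatty acid synthase fell by 1.45 ± 0.17 (adjusted p = 1.72e-06). The elongase Elovl6 fell by 1.34 ± 0.12 (adjusted p = 7.35e-08), and the carnitine transferase Cpt1a, which admits fatty acids to the mitochondria, fell by 1.05 ± 0.11 (adjusted p = 5.25e-07). The acyl-CoA dehydrogenase Acadm fell by 0.90 and Mid1ip1, which activates acetyl-CoA carboxylase, by 1.08 (a second probe set differed by -0.17). The malic enzyme Me1, a source of NADPH, rose by 1.05 ± 0.16 (adjusted p = 7.29e-05). Cholesterol synthesis gave 1 call in each direction among 21 genes, Dhcr7 (lower by 0.70) and Fdft1 (higher by 0.51, not called without control replicate 2). Outside the lists, other leading decreases were those of Limch1, which binds actin motors (-1.58 ± 0.18), the ubiquitin ligase adaptor Spsb1 (-1.38 ± 0.19), the myelin protein Pmp22 (-1.26 ± 0.14) and C330007P06Rik (-1.28 ± 0.21). A second Pmp22 probe set differed by -0.08 and other C330007P06Rik probe sets by 0.21 and -0.18, all without a call. The lysosomal glucuronidase Gusb read 7.78 and 7.82 and 6.35, 6.33 and 5.81 and fell by 1.64 ± 0.17 (adjusted p = 3.3e-07), and the cyclophilin Ppid fell by 1.66 ± 0.20 (adjusted p = 2.48e-06).

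Pigment-cell genes responded unevenly, with 12.5% called higher and 25% lower, against 7.57% and 10.7% over all genes. Of 16 measured, 2 were called higher and 4 lower, and the number called lower was 4 without any single array. Mitf, the lineage factor, read 5.73 and 6.30 in the controls and 6.78, 7.07 and 6.86 in hypoxia and rose by 0.89 ± 0.14 (adjusted p = 6.84e-05). The transcriptional coregulator Cited1 rose by 1.30 ± 0.22 (adjusted p = 0.000232). The melanosome carrier Mlph fell by 1.14 ± 0.13 (adjusted p = 1.42e-06), the melanosomal receptor Gpr143 fell by 0.89 ± 0.13 (adjusted p = 5.63e-05), and the melanocortin receptor Mc1r fell by 0.82 ± 0.12 (adjusted p = 3.92e-05). Sox10, the neural crest factor, read 10.01 and 10.00 and 9.38, 9.14 and 9.49 and fell by 0.67 ± 0.12 (adjusted p = 0.00049), and its second probe set fell by 0.56. The pigment enzymes Tyr (-0.01 ± 0.27), Tyrp1 (-0.06 ± 0.14) and Dct (-0.12 ± 0.12) were not called and their groups overlapped.

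In the list of NRF2 targets 7 of 31 were called higher (22.6%) and 3 lower (9.68%), against 7.57% and 10.7% over all genes. Fewer were called in either direction without control replicate 2. Hmox1 rose by 1.10 ± 0.13 (adjusted p = 3.9e-06) and the sulfiredoxin Srxn1 rose by 1.05 ± 0.17 (adjusted p = 0.000108), though a second Srxn1 probe set differed by 0.00. The cystine carrier Slc7a11 and the glutathione-making Gclc rose by 0.74 and 0.66, and the lipid peroxidase Gpx4 fell by 0.66. Slc7a11 was dim, with means of 2.63 in the controls and 3.37 in hypoxia, below the control array medians of 5.52 and 5.51. The calls of Gclc and Gpx4 were lost without control replicate 2. In the interferon and antigen presentation list 4 of 34 were called higher (11.8%) and 2 lower (5.88%), near the shares of all genes. Isg20, an interferon-induced exonuclease, rose by 2.08 ± 0.15 (adjusted p = 2.31e-09). The MHC class I gene H2-K1 rose by 1.48 and H2-D1 by 1.30 in probe sets that match a sequence family. A further family probe set of H2-K1 (0.52) and of H2-D1 (0.61) was called higher. The remaining probe sets of H2-K1 (-0.12) and H2-D1 (0.26) were not called.

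The proteasome and translation lists had few calls. For the proteasome 1 of 33 was called higher and 1 lower, for cytosolic ribosomal proteins 4 of 30 higher (2 without either control or hypoxia replicate 2) and 0 lower, and for translation factors 2 of 32 higher and 3 lower. Splicing factors and hnRNPs had more, at 5 higher and 13 lower of 42 (11.9% and 31.0%, against 7.57% and 10.7% over all genes), which became 2 and 8 without control replicate 1. Rbm38, an RNA-binding protein, fell by 1.22 ± 0.11 (adjusted p = 3.51e-08), and Hnrnpa1 rose by 0.93 ± 0.15 (adjusted p = 0.000161). Srsf1 fell by 1.39 ± 0.30 (adjusted p = 0.00213) in its representative probe set, in which the controls at 6.68 and 6.00 and the hypoxia arrays at 4.95, 5.41 and 4.48 scattered widely. Its call was lost without control replicate 1 (adjusted p = 0.0841), and of 3 other Srsf1 probe sets 1 was called (lower by 1.74).

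The design allows the change in experiment 1 to be set against the mean change in the second incubator experiment and the sealed chamber, each measured against its own controls. This difference of differences was called for 184 genes. In 109 of them the change was higher in experiment 1 (1.32% of all genes) and in 75 lower (0.909%). After centring each array on its median the split was 148 and 60. The count moved with single arrays. Without control replicate 1 it was 49, without control replicate 2 it was 33 and without hypoxia replicate 2 it was 67. It was 81 and 88 without chamber control replicates 1 and 2, and 116 without replicate 2 of hypoxia in experiment 2. The labels record no culture or array batch, so a set and any batch cannot be told apart.

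**Figure D4:**
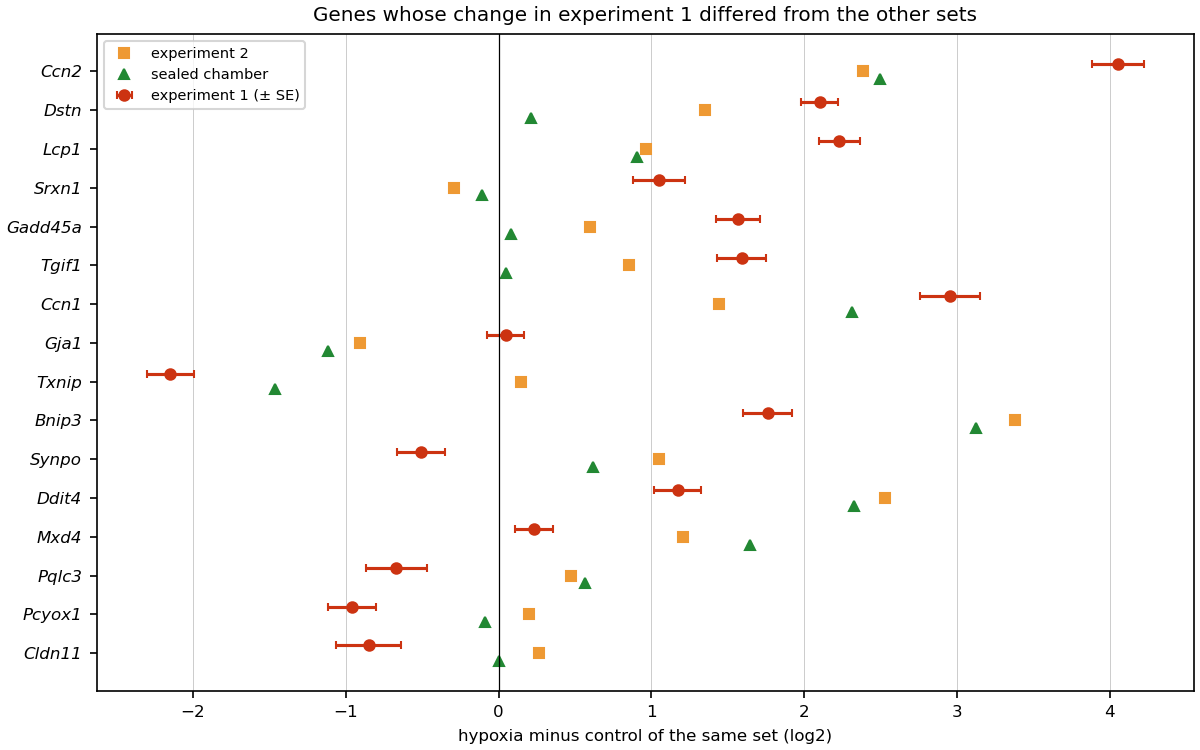
Hypoxia minus control (log2) in experiment 1 (red circles, ± SE), experiment 2 (orange squares) and the sealed chamber (green triangles) for the 8 genes in each direction whose change in experiment 1 differed most from the mean of the other sets. Ccn2 lies at 4.05 against 2.38 and 2.50, and Bnip3 at 1.76 against 3.38 and 3.13.

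The matricellular and actin genes that led the increases were among those whose rise was larger in experiment 1. Ccn2 reached 8.38, 9.13 and 8.73 in the hypoxia arrays of experiment 1, 7.50, 7.64 and 7.29 in those of experiment 2 and 7.15, 6.69 and 6.80 in the chamber, with controls between 4.35 and 5.11. Its change exceeded the mean of the other sets by 1.61 ± 0.21 (adjusted p = 0.000193). Dstn rose by 2.10 against 1.35 and 0.21 in experiment 2 and the chamber, a difference of 1.32 ± 0.15 (adjusted p = 9.96e-05). Lcp1 differed by 1.29 ± 0.17 (adjusted p = 0.000193). Vcl differed by 0.97 ± 0.20 (adjusted p = 0.0161) and Cnn2 by 0.80 ± 0.16 (adjusted p = 0.0123), and neither was called without control replicate 2, nor Vcl without hypoxia replicate 2. The larger rise of Vegfa (0.89 ± 0.20, adjusted p = 0.0204) was lost without either control or hypoxia replicate 2 or 3 of experiment 1, or without chamber control replicate 1. Ccn1 rose by 2.95 against 1.44 and 2.31, and its difference of 1.08 ± 0.24 (adjusted p = 0.0199) was not called without any of 4 arrays, among them both controls of experiment 1. Of the 30 SRF and YAP targets 5 differed in this direction, and 1 did without control replicate 2, 3 without control replicate 1 or chamber control replicate 1, and 2 without hypoxia replicate 2.

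Stress and signalling genes with a larger increase in experiment 1 were Gadd45a, Tgif1 and Srxn1. Gadd45a, a growth-arrest gene, read 7.06 and 7.52 in the controls and 8.77, 8.89 and 8.90 in hypoxia, and rose by 1.57 against 0.60 and 0.08 in the other sets, a difference of 1.23 ± 0.18 (adjusted p = 0.000635). The TGF-beta repressor Tgif1 rose by 1.59 against 0.85 and 0.05, a difference of 1.14 ± 0.19 (adjusted p = 0.00287) that was lost without control replicate 1. Srxn1 had controls of 5.58 and 5.81 in experiment 1, 6.78 and 6.49 in experiment 2 and 6.40 and 6.27 in the chamber, so its controls in experiment 1 were the lowest of the 3 sets. Its difference was 1.25 ± 0.21 (adjusted p = 0.00225), while a second Srxn1 probe set gave a difference of -0.17 without a call. The gap junction protein Gja1 changed by 0.05 in experiment 1 without a call, against -0.91 and -1.12 elsewhere, a difference of 1.06 ± 0.15 (adjusted p = 0.000541).

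The HIF targets Bnip3 and Ddit4 stood in the opposite direction. Bnip3 read 6.21 and 6.07 in the control arrays and 8.07, 7.90 and 7.74 in the hypoxia arrays, and this mitophagy receptor rose by 1.76 ± 0.16 (adjusted p = 6.14e-08). In experiment 2 its controls read 5.17 and 5.42 and its hypoxia arrays 8.52, 8.73 and 8.77, and in the chamber 5.66 and 5.34 and 8.51, 8.52 and 8.85. Controls of experiment 1 were thus the highest of the 3 sets and its hypoxia arrays the lowest, and the difference was -1.49 ± 0.20 (adjusted p = 0.000231). Ddit4, which restrains the growth kinase mTOR, rose by 1.17 against 2.53 and 2.33, a difference of -1.26 ± 0.19 (adjusted p = 0.000853). Its hypoxia arrays read 9.90, 9.92 and 9.75 in experiment 1 and 9.89, 9.73 and 9.86 in experiment 2, close to each other, while the controls read 8.51 and 8.86 and 7.32 and 7.27. Aldoc rose by 1.22 against 1.98 and 2.10, a difference of -0.83 ± 0.17 (adjusted p = 0.0155) that was lost without control replicate 1. The Myc antagonist Mxd4 changed by 0.23 without a call in experiment 1 and by 1.21 and 1.64 elsewhere (difference -1.20 ± 0.15, adjusted p = 0.000193).

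Txnip, which binds thioredoxin and limits glucose uptake, had the largest decrease in experiment 1. Txnip read 7.77 and 7.96 in the control arrays and 5.70, 5.74 and 5.71 in the hypoxia arrays, and it fell by 2.15 ± 0.15 (adjusted p = 1.5e-09). In experiment 2 its controls read 6.83 and 6.40 and its hypoxia arrays 6.96, 6.34 and 6.98, which overlap, and in the chamber 8.20 and 8.21 and 6.86, 6.69 and 6.66, which do not. The difference from the mean of those sets was -1.49 ± 0.19 (adjusted p = 0.000193), and that from experiment 2 alone -2.30 ± 0.22 (adjusted p = 7.05e-06). A second Txnip probe set differed by 0.04 in experiment 1 and was not called.

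Of the 16 pigment-cell genes, 2 had a lower change in experiment 1 than in the other sets. Mc1r fell in experiment 1 by 0.82 against changes of 0.05 and 0.03, a difference of -0.86 ± 0.15 (adjusted p = 0.00322), and Sox10 by 0.67 against 0.17 and -0.06 (-0.72 ± 0.15, adjusted p = 0.016). The Sox10 difference was not called without either control or without hypoxia replicate 2, and a second Sox10 probe set gave a difference of -0.49 without a call. The actin-associated Synpo read 4.68 and 4.62 and 4.23, 4.38 and 3.81 and fell by 0.51 ± 0.16 (adjusted p = 0.0263), but changed by 1.05 and 0.62 in the other sets (difference -1.34 ± 0.19, adjusted p = 0.000624). Its decrease in experiment 1 was lost without either control or without hypoxia replicate 3. Pqlc3 (-1.19 ± 0.25, adjusted p = 0.0155), the prenylcysteine oxidase Pcyox1 (-1.02 ± 0.19, adjusted p = 0.00882) and the claudin Cldn11 (-0.99 ± 0.26, adjusted p = 0.0495) differed the same way. Without control replicate 2 the first 2 of these were not called, nor was Pqlc3 without hypoxia replicate 2, and Cldn11 was lost without any of 13 of the 15 arrays in turn and in the mean of its probe sets. A second Cldn11 probe set gave a difference of -0.02 without a call. Cyclin D1, Ccnd1, fell by 0.89 against -0.36 and 0.08 (-0.75 ± 0.18, adjusted p = 0.0273), a difference lost without any of 8 of the 15 arrays, among them both controls of experiment 1. A second Ccnd1 probe set gave a difference of -0.44 without a call.

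Lists for protein production had higher medians in experiment 1 than in the other sets. This order was not particular to them. Medians in experiment 1, experiment 2 and the chamber were -0.46, -0.67 and -0.83 for DNA replication. For the proteasome they were -0.10, -0.20 and -0.41. In these last lists the difference was called for 0 members. Of 44 ribosome biogenesis genes, 12 were called lower and 3 higher in experiment 1, with a median of -0.15, against medians of -0.45 in experiment 2 and -0.73 in the chamber. The difference was called for 10 of the 44, all with the higher change in experiment 1, and its median over the list was 0.47 against -0.04 over all genes. The 10, named after their values were seen, were Pes1, Utp18, Gnl3, Gar1, Nop56, Nop58, Ftsj3, Ncl, Ltv1 and Rrs1. With each of the 15 arrays left out in turn, the differences of Rrs1, Ltv1 and Ncl were lost for 13, 12 and 11 arrays. Those of the other genes among the 10 were lost for 1 (Utp18) to 8 arrays (Ftsj3). Pes1, a factor of the large ribosomal subunit, read 6.11 and 6.11 in the controls and 6.56, 6.73 and 6.56 in hypoxia and rose by 0.51 ± 0.13 (adjusted p = 0.00698), but changed by -0.54 in the chamber and -0.11 in experiment 2, a difference of 0.84 ± 0.16 (adjusted p = 0.00882). Neither its rise nor its difference was called without either control of experiment 1. Nop56, a core protein of methylation-guide particles, fell by 0.74 ± 0.12 (adjusted p = 0.00013) against -1.11 and -1.63, with a second probe set at -0.22 in experiment 1. Bop1, a partner of Pes1, fell by 1.12 ± 0.15 (adjusted p = 1.24e-05) and differed from the other sets by 0.23 without a call, and its second probe set read -0.03. The count of 10 was 1 without control replicate 1, 1 without control replicate 2 and 2 without hypoxia replicate 2, and 5, 3, 5 and 5 without chamber control replicate 1, chamber control replicate 2, experiment 2 control replicate 2 and experiment 2 hypoxia replicate 2. In experiment 1 itself 6 were called lower without control replicate 2, and 0 higher without either control.

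**Figure D5:**
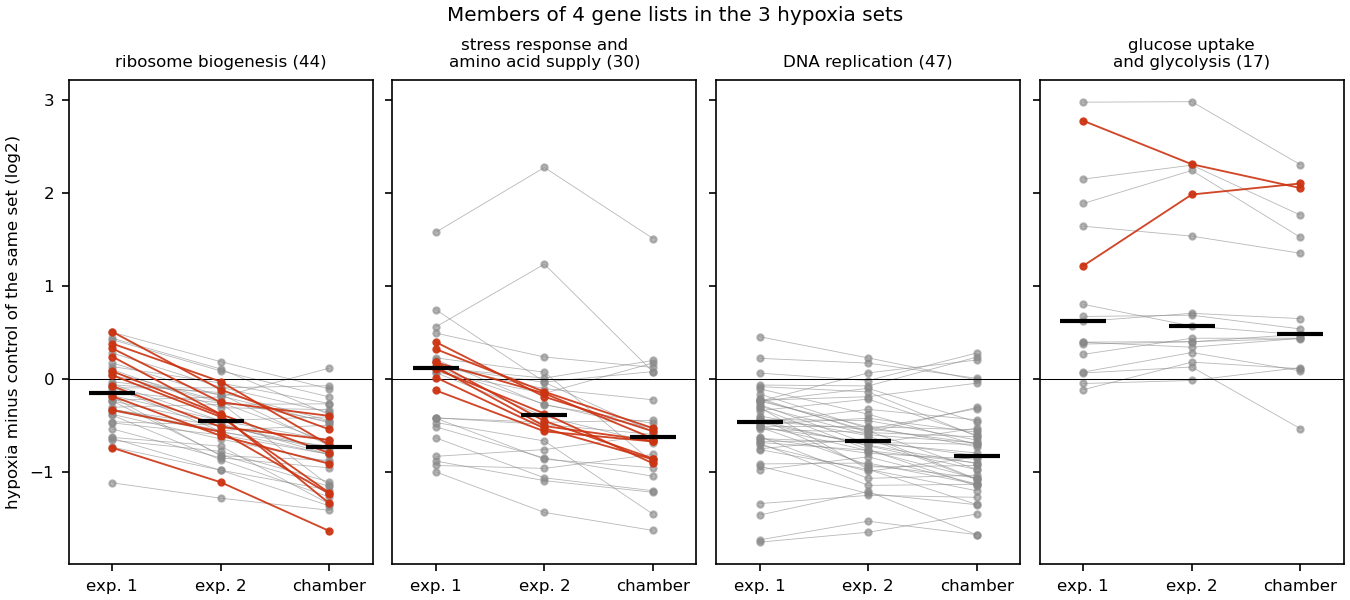
Hypoxia minus control (log2) of each member of 4 gene lists in experiment 1, experiment 2 and the chamber, with lines joining the values of a gene. Red lines mark members whose change in experiment 1 differed from the mean of the other sets and black bars the list medians, which for ribosome biogenesis are -0.15, -0.45 and -0.73.

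The list of the integrated stress response and amino acid supply showed the same order of medians. Of 30 measured genes 4 were called higher (2 without control replicate 1 or hypoxia replicate 1) and 8 lower in experiment 1, and the medians were 0.11, -0.39 and -0.62 in experiment 1, experiment 2 and the chamber. The difference was called for 8 of the 30, again all higher in experiment 1: the aminoacyl-tRNA synthetases Tars, Iars, Mars1 and Cars, the kinase-like Trib3, the folate enzyme Mthfd2, the transporter subunit Slc3a2 and the asparagine synthetase Asns, named after their values were seen. Mthfd2 read 10.56 and 10.63 and 10.51, 10.75 and 10.58 in experiment 1, where the groups overlapped, and changed by -0.53 and -0.86 in the other sets, a difference of 0.71 ± 0.15 (adjusted p = 0.0162). Trib3 changed by 0.11 against -0.37 and -0.91 (adjusted p = 0.014). The difference of Asns was lost without any of 14 of the 15 arrays in turn, and that of Slc3a2 without any of 13. Those of the other named genes of this list were lost without 1 (Tars and Trib3) to 4 arrays (Iars). Amino acid carriers changed in both directions in experiment 1. Slc1a5 fell by 1.00 ± 0.13 (adjusted p = 1.08e-05), Slc1a4 fell by 0.93 ± 0.11 (adjusted p = 3.21e-06) and Slc7a5 by 0.63, whereas Slc7a11 rose by 0.74 ± 0.17 (adjusted p = 0.00377) and Slc7a1 by 0.49 (lost without control replicate 1 or hypoxia replicate 1), and Slc3a2 (0.18) and Slc38a2 (-0.47) were not called. Slc7a11 was dim in both groups, with means of 2.63 in the controls and 3.37 in hypoxia. The serine enzyme Psph fell by 0.88 ± 0.18 (adjusted p = 0.00113). The count of 8 was 1 without control replicate 1, 2 without control replicate 2 and 3 without hypoxia replicate 2, and 5 without either chamber control.

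Against experiment 2 alone, which used the same kind of device, the change differed for 27 genes, 11 with the higher change in experiment 1 (0.133%) and 16 with the lower (0.194%). The count was 14 without control replicate 1, 8 without control replicate 2, 17 without experiment 2 control replicate 1 and 15 without experiment 2 hypoxia replicate 2. Txnip led the decreases, followed by Bnip3 (-1.62 ± 0.23), Synpo (-1.56 ± 0.22), Rassf1 (-1.55 ± 0.26), Ddit4 (-1.36 ± 0.22), Pcyox1 (-1.16 ± 0.22), Adssl1 (-1.11 ± 0.20) and Mxd4 (-0.98 ± 0.17). Ccn2 led the increases (1.67 ± 0.24, adjusted p = 0.00156), before Ccn1 (1.51 ± 0.28), Srxn1 (1.34 ± 0.24) and Lcp1 (1.26 ± 0.19). The differentiation inhibitor Id3 changed by 0.10 in experiment 1 and by -0.995 in experiment 2 (1.10 ± 0.18, adjusted p = 0.00553), and its control arrays read 5.22 and 5.40 and 6.78 and 6.74. The spermidine synthase Srm fell by 0.55 in experiment 1, a call lost without control replicate 1, and changed by -1.49 in experiment 2 (0.94 ± 0.17, adjusted p = 0.0122). Without control replicate 2 the differences of Rassf1, Ddit4, Pcyox1, Adssl1, Mxd4, Ccn1 and Srm from experiment 2 were not called, and without control replicate 1 those of Pcyox1, Ccn1, Srxn1 and Id3. Without experiment 2 control replicate 1 those of Pcyox1, Ccn1, Srxn1 and Srm were lost, without its control replicate 2 that of Mxd4, and without its hypoxia replicates 2 or 3 that of Pcyox1.

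Many calls of experiment 1 recurred in the other sets. Their arrays are separate, but the spread of each gene was estimated over all arrays, so the calls are not independent. Of the 625 genes called higher, 402 (64.3%) were also called higher in experiment 2, which is 64.5% of the 623 called there, and 276 (44.2%) in the chamber, which is 42.0% of 657. Of the 885 called lower, 431 (48.7%) were also called in experiment 2, 67.0% of its 643, and 552 (62.4%) in the chamber, 44.4% of its 1242. Among genes called higher, 96.0% rose in experiment 2 (43.4% of all genes did) and 81.8% in the chamber (59.1%), with or without a call. Among genes called lower, 93.6% fell in experiment 2 (56.6% of all genes did) and 90.4% in the chamber (40.9%). Calls in opposite directions were few, at 4 genes against experiment 2 and 19 against the chamber. The 4 were Synpo, Adssl1, Ikbkg and Nr4a1, named after their values were seen, and without control replicate 2 none of them was called in experiment 1. Among the 14 genes higher in experiment 1 and lower in the chamber were the nucleolar genes Gnl3 and Pes1 and the splicing regulator Bclaf1 (0.53 and -0.54). Without control replicate 2 none of these 3 was called in experiment 1.

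Within experiment 1 the hypoxia arrays did not deviate evenly. Of 625 genes called higher, hypoxia replicate 2 had the highest value in 385 (61.6%), against 35.3% over all genes. Of 885 genes called lower, hypoxia replicate 3 had the lowest value in 472 (53.3%), against 33.3% over all genes. Rrm2 is an example of the latter, with 6.43 in replicate 3 beside 7.21 and 7.26, and Ccn2 of the former, with 9.13 beside 8.38 and 8.73. Leaving out hypoxia replicate 2 or 3 gave 1295 and 1265 calls.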

How the data were processed

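RNA from B16-F10 cells was hybridised to 21 arrays. The deposited values are log2 expression values made by the authors with RMA after scanning with GCOS 1.2, per the submitters' processing notes; for the RMA version and probe definition, the sources used here give nothing. Of 12488 probe sets, 66 Affymetrix controls were left out and 10833 carried a single gene name. Each of the 8251 genes was represented by its probe set with the highest mean, and 2073 genes had several. Probe sets whose name ends in f_at, of which there were 395, match a sequence family. The number of arrays limits the precision.

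A linear model with a mean for each group was fitted over all arrays (limma 3.58.1, R 4.3.3, moderated test). The change in experiment 1, its difference from the mean change of the other hypoxia sets and its difference from experiment 2 were tested with Benjamini-Hochberg adjustment at 0.05. The code was tested on simulated data. The text names the 15 largest called changes in each direction without overlap, up to 6 genes of each of 41 lists, up to 8 in each direction of a difference, 13 further genes and probe sets that disagree; genes outside this rule were chosen after their values were seen. The members and lists were chosen with earlier results of these data known, and Selenbp1 and Lgals3 entered lists from earlier work on this line. List symbols were matched through RefSeq synonyms. The deviations of same-numbered arrays correlated at -0.0101 and 0.0144 in experiment 1, 0.235 and 0.0273 in experiment 2 and -0.0737 and -0.108 in the chamber. They were not above 0.1 in every pair, so no replicate block was used. Alternatives covered scaling, low genes, probe sets, the variance model, array weights, the arrays fitted, the replicate block and each array left out.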

Additional observations from a re-analysis of the deposited data

Results flagged for a closer look

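A larger or smaller change in experiment 1 than in the mean of experiment 2 and the sealed chamber was tested directly, and the 8 largest called differences in each direction are given here in log2 units. The change was higher in experiment 1 for Ccn2 (1.61), Dstn (1.32), Lcp1 (1.29), Srxn1 (1.25), Gadd45a (1.23), Tgif1 (1.14), Ccn1 (1.08) and Gja1 (1.06). It was lower for Txnip (-1.49), Bnip3 (-1.49), Synpo (-1.34), Ddit4 (-1.26), Mxd4 (-1.20), Pqlc3 (-1.19), Pcyox1 (-1.02) and Cldn11 (-0.99).

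Against experiment 2 alone, the tested difference was positive for Ccn2 (1.67), Ccn1 (1.51), Srxn1 (1.34), Lcp1 (1.26), Id3 (1.10), Gadd45a (0.97), Gja1 (0.96) and Srm (0.94). It was negative for Txnip (-2.30), Bnip3 (-1.62), Synpo (-1.56), Rassf1 (-1.55), Ddit4 (-1.36), Pcyox1 (-1.16), Adssl1 (-1.11) and Mxd4 (-0.98). The difference of Gadd45a from experiment 2 was lost without any of 9 of the 10 arrays in turn, and when every probe set was fitted. That of Gja1 was lost without any of 3 arrays, namely either control of experiment 1 or control replicate 2 of experiment 2. The same arrays of experiment 1 enter both comparisons, which are therefore not independent.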

How the results depend on the processing

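Counts of called genes under other scaling, filters on low genes, probe set rules or variance models were 1374 to 1727 for the change in experiment 1 (1510 in the fit described), 172 to 208 for the difference from the other sets (184) and 22 to 31 for that from experiment 2 (27). Array weights gave 2097, 624 and 123. Fitting only the 15 hypoxia-set arrays gave 2178 and 631, only experiments 1 and 2 57 for their difference, and only experiment 1 1669. A change of at least 1 log2 unit left 180. With the replicate block the counts were 827, 11 and 3, where only 1 pair of same-numbered arrays, in experiment 2, had deviations that correlated above 0.1 (0.235). Leaving out each array in turn gave 884 to 1330, 33 to 163 and 8 to 29. The lone control that remains is then assumed to vary like the other groups.

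Of 212 called changes of genes named, 149 stayed called under every alternative run and 63 were lost under some, 59 of them under a left-out array. Of 41 differences from the other sets 8 stayed called, and of 16 from experiment 2, 3. Sel1l, an endoplasmic reticulum protein, reversed from 0.62 to -0.0074 in the mean of its probe sets. Every comparison rests on 2 control arrays per set, and no detection calls were used, so dim probe sets were not set apart.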
